A study of Rattus norvegicus with 12 samples.

Results

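Integrins, cadherins, claudins and the occludin and Tjp proteins that accompany claudins are the receptors with which cells hold to matrix and to each other. Their genes were followed in the testis of rat embryos at embryonic day 16 of a vinclozolin and a control lineage, over the F1, F2 and F3 generations. The members were all probe sets of the Affymetrix rat array whose single annotated symbol was Itga or Itgb with a number, Itgav, Cdh with a number, Cldn with a number, Tjp1 to Tjp3 or Ocln. Cdh5 and Cldn5, which are typical of endothelium, were left out of the rule. This gave 77 probe sets of 50 genes among 31042 gene probe sets. The rule used symbols alone and no measured value, but it was chosen with earlier results of these data known.

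Each of the 6 groups had 2 arrays, and each array measured the RNA of a pool of about 10 testes of 1 treatment. The F1 vinclozolin embryos were carried by females injected intraperitoneally with 100 mg/kg/day of vinclozolin, a fungicide with anti-androgenic metabolites, on pregnancy days 8 to 14. The F2 vinclozolin embryos were the next generation, and the F3 vinclozolin embryos the one after it, with no further dosing described. The F1, F2 and F3 control groups were built in the same way from females that received the vehicle of sesame oil and DMSO. The protocol text of the F2 and F3 vinclozolin groups says that the animals mated came from different control lines; the titles name them vinclozolin, and the titles were followed. The strain was not given. No label ties a pool to a litter, so each p-value measures the spread between RNA pools, which may be technical. In whole testis RNA, fewer cells of a type and less RNA per cell cannot be told apart.

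Integrins are pairs of an alpha and a beta chain that bind matrix proteins such as laminin and fibronectin and couple them to actin through focal adhesion proteins. Cadherins bind the same cadherin on the next cell and are held to actin by catenins, while claudins and occludin seal the space between cells and are anchored by the Tjp scaffold proteins. In the fetal testis, Sertoli cells surround germ cells in cords that rest on a laminin-rich basement membrane; the blood-testis barrier, which is built of these junctions, closes only after birth, around puberty.

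Deposited values were linear signals per probe set, analysed as log2(signal + 16), which understates the changes of dim probe sets. A probe set was called where the adjusted p of limma was under 0.05 over all 21729 tested probe sets, and fold changes are log2 differences, vinclozolin minus control, with their SE. Of the members, 47 probe sets of 30 genes were bright enough to be tested. They had signals of 5.0 to 1899. The other 30 were among the dimmest 30% of probe sets, with a mean under about 14.8. Just inside that limit were Cldn1 (1396150_at) and Itga6 (1371185_at), at mean signals of 16.3 and 16.9, and just outside it were Cldn3 and Cldn10, at 13.6 and 12.5.

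Most claudin genes were dim. Of 15 claudin genes, Cldn2, Cldn3, Cldn4, Cldn6, Cldn7, Cldn8, Cldn10, Cldn14, Cldn16, Cldn18, Cldn19 and Cldn22 had no tested probe set, and 4 of 20 claudin probe sets were tested. Among cadherins the same held for Cdh6, Cdh8, Cdh10, Cdh12, Cdh16 and Cdh20, and among integrins for Itga7 and Itgb6. Single further probe sets of Itga9, Cdh1, Cdh2 and Cdh22, and a pair of Cldn1, were also left out. The 30 left-out probe sets had signals between 0.2 and 56.7 with a median of 5.2, and 37 of their 360 values were above 14.8.

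Signs of RNA quality differed between the lineages. The ratio of the 5′ to the 3′ probe set of beta-actin was 0.149 and 0.192 on F1 vinclozolin arrays, 0.219 and 0.246 on F2 vinclozolin arrays and 0.360 and 0.395 on F3 vinclozolin arrays, against 0.423 to 0.471 on the 6 control arrays. The Gapdh ratio was 0.651 and 0.718 on F1, 0.721 and 0.800 on F2 and 0.970 and 1.02 on F3 vinclozolin arrays, against 0.959 to 1.02 on control arrays. Median signals were 40.6 to 42.9 on vinclozolin arrays and 44.5 to 47.1 on control arrays. Replicate arrays differed more on vinclozolin arrays (pooled SD of log2 values 0.24 in F1, 0.20 in F2 and 0.18 in F3) than on control arrays (0.15, 0.16 and 0.13). The part of RNA quality in the results below was not tested.

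In F1, 13 of the 47 tested members (27.7%) were called, 2 higher and 11 lower, where 23.1% of all tested probe sets were called (9.41% higher and 13.7% lower). In F2, 12 members (25.5%) were called, 2 higher and 10 lower, against 14.3% of all (4.7% higher and 9.65% lower). In F3, 2 members (4.26%) were called, both lower, against 3.11% of all (1.05% higher and 2.06% lower). The share called was thus near that of the whole array in F1 and F3, with more lower than higher calls in both. The median fold change of the members was −0.18 in F1, −0.05 in F2 and −0.14 in F3, against −0.01 over all tested probe sets in each generation. By gene, 10 of 30 were called in F1 (8 lower, 2 higher), 9 in F2 (7 lower, 2 higher) and 2 in F3, both lower.

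Averaged over the 3 generations, 20 members (42.6%) were called, 3 higher and 17 lower, against 33.3% of all (14.1% higher and 19.2% lower). A single member of the 47 tested was called in all 3 generations, Cdh2 (1387259_at), lower each time, against 0.907% of all tested probe sets. No member was higher in all 3, against 0.313% of all. There were 32 members with no call in any single generation. On 8 of the 47 tested members all 6 vinclozolin arrays lay below all 6 control arrays, against 7.73% of all tested probe sets. On 1 of the 47, Itgb3, all 6 lay above, against 5.52% of all. Centring each array on its median, which added 0.12 to the fold changes in F1, 0.12 in F2 and 0.05 in F3, gave 5 higher and 8 lower calls in F1 and 3 higher and 7 lower in F2. The difference between lineages depended on generation for 3 of the 47 tested members by limma's F test, against 2.6% of all tested probe sets. Differences among the F1, F2 and F3 control groups were called for 0 members by limma's F test, as for 0% of all probe sets. The lowest unadjusted p among the 47 members was 0.115, so 0 were under 0.05. The spread used in this test was pooled with the vinclozolin arrays, whose replicates differed more. Differences between control groups could therefore be missed, and the absence of calls does not show that these groups were equal.

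The counts moved when single arrays were left out. The F1 count was 8 without F1 control replicate 1 and 20 without F1 vinclozolin replicate 1. The F2 count was 2 without F2 control replicate 1, 6 without F2 control replicate 2 and 5 without F2 vinclozolin replicate 2. The F3 count was 0 without F3 control replicate 2, 7 without F1 vinclozolin replicate 1 or 2, which enter through the pooled spread alone, 3 without F2 vinclozolin replicate 1 or 2 and 1 without any other array.

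**Figure D1:**
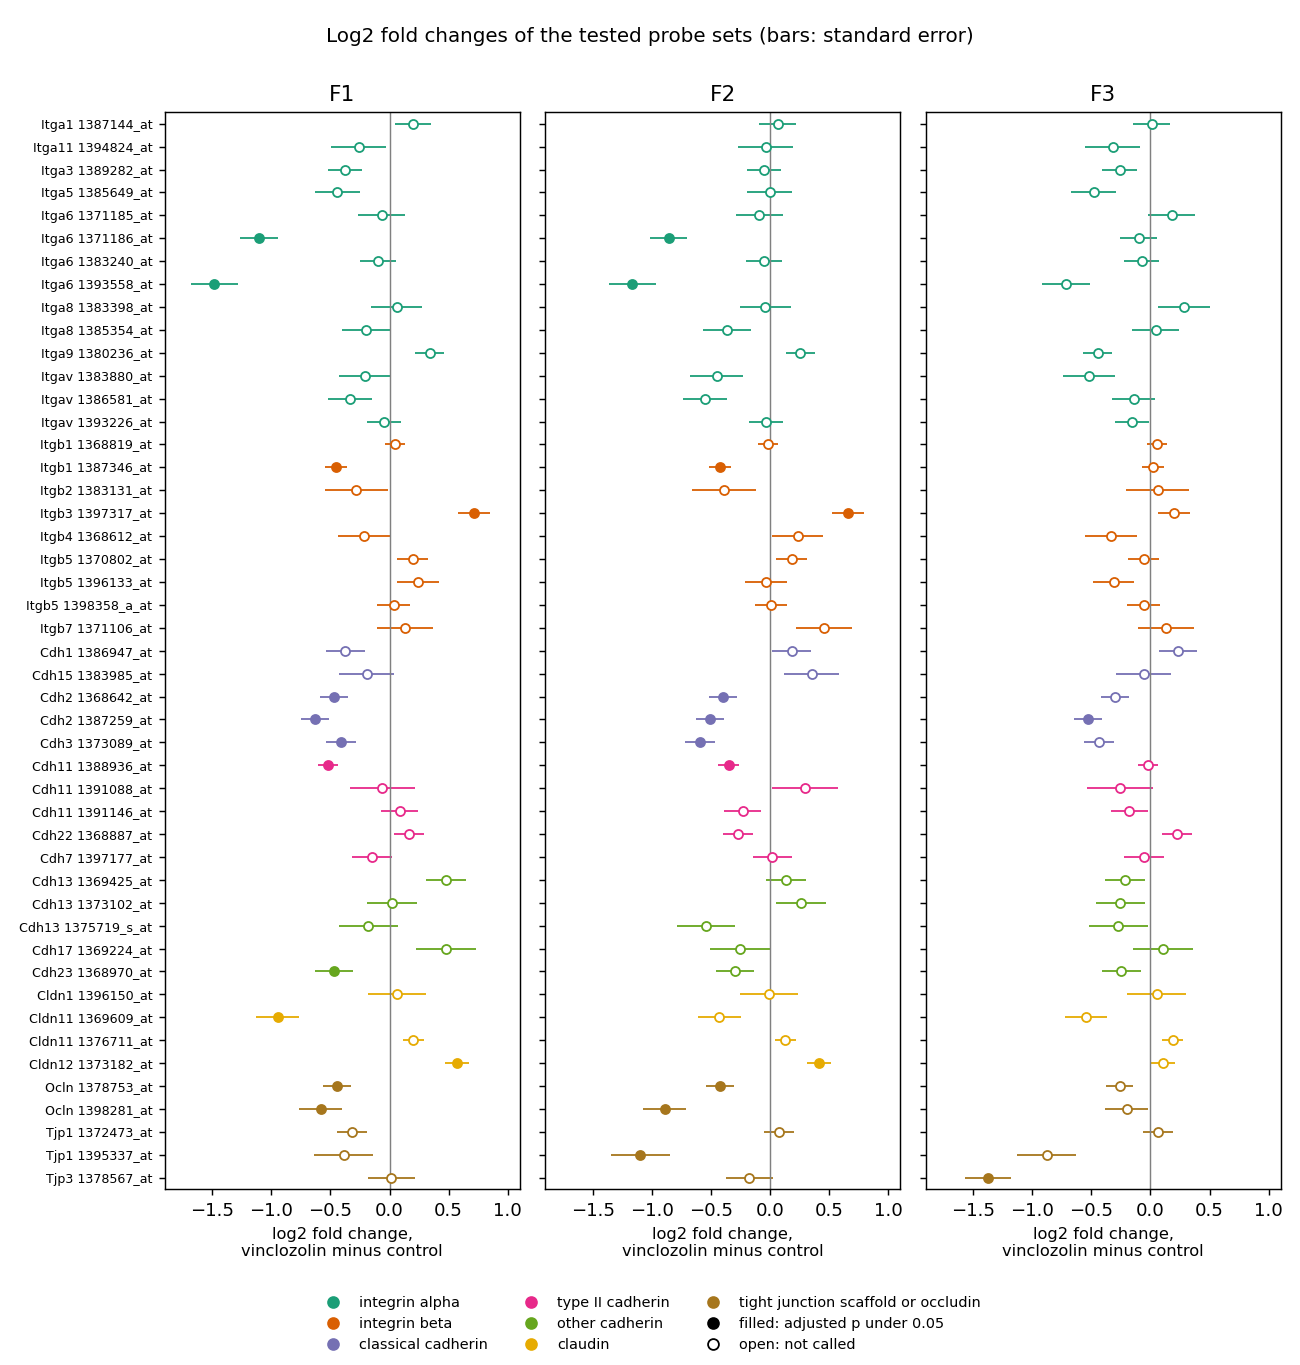
Log2 fold change, vinclozolin minus control, of the 47 tested member probe sets in F1, F2 and F3, with called probe sets (limma adjusted p under 0.05) drawn filled and the others open; bars are SE and colours are gene classes. In F1, 2 members lie above 0 and 11 below it among the calls, in F2 2 and 10, and in F3 both calls lie below 0.

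Itga6, the alpha chain of laminin receptors, had at its probe set 1393558_at the lowest fold change of all members in F1 and in F2. That probe set had signals of 50.5 and 49.3 in F1, 92.7 and 47.0 in F2, and 116 and 85.4 in F3 on vinclozolin arrays, against 180.1 and 157 in F1, 179 and 161 in F2, and 181 and 166 in F3 on control arrays. All 6 vinclozolin arrays were below all 6 control arrays, with the lowest signals in F1 and on 1 F2 array. The fold change was −1.48 ± 0.20 in F1 (adjusted p = 0.000122), −1.17 ± 0.20 in F2 (adjusted p = 0.00146) and −0.71 ± 0.20 in F3 (adjusted p = 0.0673), so that Itga6 fell at this probe set in F1 and F2. Probe set 1371186_at gave 30 and 22.0 in F1, 38.2 and 36.8 in F2, and 58.7 and 67.3 in F3 on vinclozolin arrays, against 75.9 and 72.0 in F1, 79.0 and 82.9 in F2, and 79.2 and 59.2 in F3 on control arrays. Vinclozolin arrays were lower in F1 and F2, and overlapped the controls in F3. Its fold change was −1.10 ± 0.16 in F1 (adjusted p = 0.000198), −0.86 ± 0.16 in F2 (adjusted p = 0.00246) and −0.10 ± 0.16 in F3 (adjusted p = 0.794), and the difference depended on generation (limma F test, adjusted p = 0.0481). The 4 Itga6 calls in F1 and F2 were kept under each of the 20 alternatives run for them. The dependence on generation was kept in 2 of 12 fits that left out 1 array, those without F1 vinclozolin replicate 1 or F2 vinclozolin replicate 1, with an adjusted p of up to 0.315 (without F3 control replicate 2).

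The other Itga6 probe sets did not show this difference. The brightest, 1383240_at, had signals of 705 and 461 in F1, 651 and 515 in F2, and 653 and 584 in F3 on vinclozolin arrays, against 603 and 618 in F1, 586 and 613 in F2, and 649 and 653 in F3 on control arrays, and fold changes of −0.10 (F1), −0.05 (F2) and −0.08 (F3). The dim 1371185_at gave −0.07 (F1), −0.09 (F2) and 0.18 (F3). None of these 6 values was called, and which transcript forms each probe set reads was not analysed here.

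Itgb1, the beta chain that pairs with most alpha chains, also had 1 lower probe set. Its probe set 1387346_at gave 551 and 570.4 in F1, 667 and 557 in F2, and 779.6 and 797 in F3 on vinclozolin arrays, against 782 and 763 in F1, 834 and 813 in F2, and 805 and 753 in F3 on control arrays. Both F1 and both F2 vinclozolin arrays were below their controls, and the F3 groups overlapped. Itgb1 fell at this probe set in F1 and F2, with −0.45 ± 0.09 in F1 (adjusted p = 0.00274), −0.42 ± 0.09 in F2 (adjusted p = 0.00723) and 0.02 ± 0.09 in F3 (adjusted p = 0.942). The F2 call was lost without F2 control replicate 1, and without F2 vinclozolin replicate 2 (−0.30, adjusted p = 0.102). The second probe set, 1368819_at, had signals of 1609.8 to 1899 on vinclozolin arrays and 1628 to 1784 on control arrays, with fold changes of 0.04 (F1), −0.02 (F2) and 0.05 (F3), none called.

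**Figure D2:**
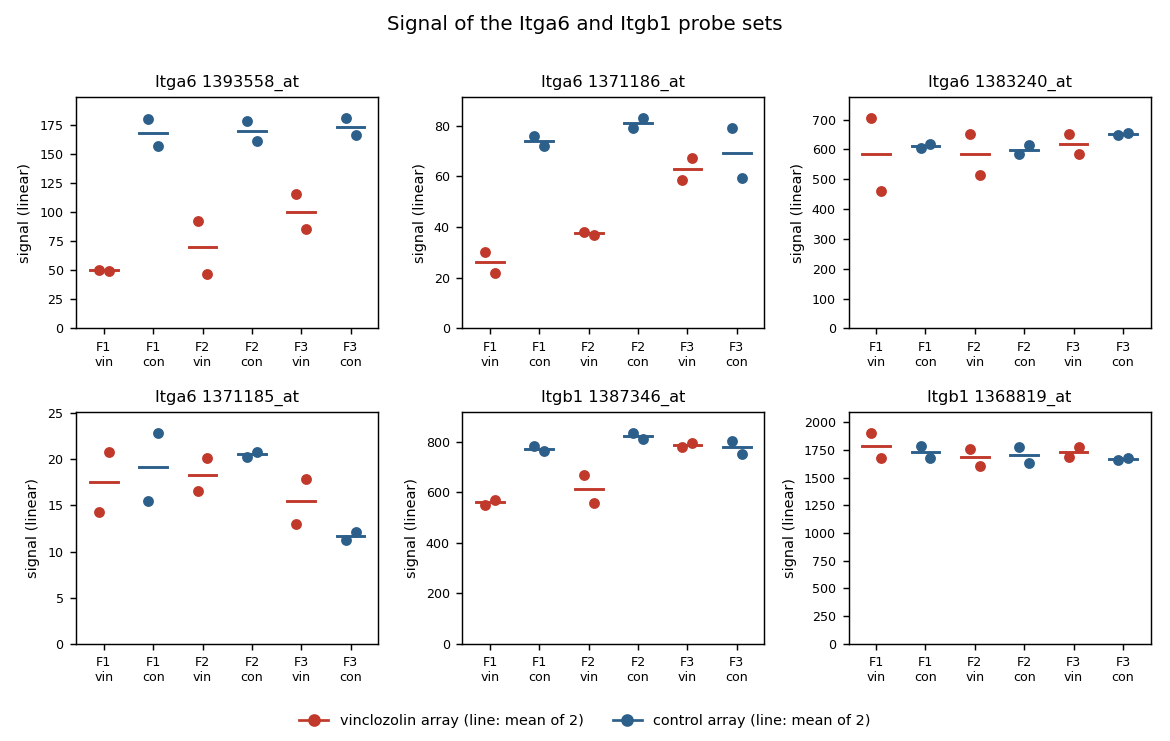
Signal (linear) of the 4 Itga6 and both Itgb1 probe sets on each array, by generation and lineage, with points for arrays and lines for the mean of 2. Itga6 1393558_at, Itga6 1371186_at and Itgb1 1387346_at are lower on F1 and F2 vinclozolin arrays than on their controls, and the other 3 probe sets overlap or differ little.

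Itgb3, which pairs with the Itgav chain and, on platelets, with Itga2b, was the only member integrin called higher. Its signals were 167 and 142 in F1, 136 and 147 in F2, and 102 and 97.4 in F3 on vinclozolin arrays, against 82.3 and 93.2 in F1, 80.0 and 87.1 in F2, and 74.8 and 96.2 in F3 on control arrays. All 6 vinclozolin arrays were above all 6 control arrays, though narrowly in F3. Itgb3 rose in F1 and F2, with fold changes of 0.71 ± 0.14 in F1 (adjusted p = 0.0017), 0.66 ± 0.14 in F2 (adjusted p = 0.00518) and 0.20 ± 0.14 in F3 (adjusted p = 0.485). The F2 call was lost without F2 control replicate 1 (0.61, adjusted p = 0.0592), and without F2 vinclozolin replicate 2. No platelet marker was called: of 4 probe sets on the array 2 were tested and 0 were called in any generation, with Itga2b at −0.03 and Pf4, a platelet chemokine, at 0.20 in F1. The summed signal of those 4 was 170.7 to 199 in F1, 149 to 166 in F2 and 139.9 to 184 in F3 on vinclozolin arrays, against 161 to 177 in F1, 157 to 159.8 in F2 and 142 to 165 in F3 on control arrays, and no platelet probe set was at 0.

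A few alpha chains were called lower only in the mean of the 3 generations. They were Itga3, a laminin receptor chain (−0.23 ± 0.08, adjusted p = 0.0435), Itga5, the fibronectin receptor chain (−0.31 ± 0.11, adjusted p = 0.041), and Itgav, the chain of several RGD-binding receptors, at 1383880_at (−0.39 ± 0.13, adjusted p = 0.0273) and 1386581_at (−0.34 ± 0.11, adjusted p = 0.0225). The third Itgav probe set gave −0.08 and was not called. Each of these 4 calls was lost on leaving out some single arrays: Itga3 in 8 of 12 such fits, Itga5 in 10, and Itgav in 7 and 5. The highest adjusted p was 0.153 for Itga3 without F3 control replicate 1, 0.12 for Itga5 without F2 vinclozolin replicate 1, 0.0853 for Itgav (1383880_at) without F3 vinclozolin replicate 2 and 0.0777 for Itgav (1386581_at) without F1 control replicate 1. Under median centring none of these 4 was called. The Itga3 and Itga5 calls were also lost without the filter, under quantile normalization and without the variance trend, and that of Itgav (1386581_at) under quantile normalization. In all, integrin alpha chains had 0 higher and 2 lower calls among 14 tested probe sets (14.3%) in F1, the same in F2 and 0 in F3, with medians of −0.20, −0.05 and −0.15. The lower calls in F1 and in F2 were all of Itga6. Beta chains had 1 higher and 1 lower among 9 (22.2%) in F1 and in F2, and 0 in F3, with medians of 0.04, 0.01 and 0.02. Over all tested probe sets 23.1% were called in F1, 14.3% in F2 and 3.11% in F3, so the share of alpha chains was below that of the array in F1 and equal to it in F2, and the share of beta chains was near it in F1.

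Itga9, whose product binds tenascin and VCAM1, was not called in any single generation, yet its difference depended on generation. Its signals were 551 and 404 in F1, 429 and 484 in F2, and 289.8 and 306 in F3 on vinclozolin arrays, against 362 and 377 in F1, 377 and 382 in F2, and 426 and 398 in F3 on control arrays. Vinclozolin arrays were above their controls in F1 and F2 and below them in F3. The fold changes were 0.34 ± 0.12 in F1 (adjusted p = 0.0567), 0.25 ± 0.12 in F2 (adjusted p = 0.185) and −0.45 ± 0.12 in F3 (adjusted p = 0.0613), and the F test of the difference between generations gave an adjusted p of 0.0351. It was lost in 9 of 12 fits that left out 1 array, those without any single control array, F2 vinclozolin replicate 2 or either F3 vinclozolin array (adjusted p up to 0.187, without F3 control replicate 1). Itga1 and Itga11, the collagen receptor chains, Itga8, a receptor chain of nephronectin, Itgb2, the leukocyte chain, Itgb4, Itgb5 and Itgb7 had no call in any generation or in the mean. Leukocyte markers had 0 of 7 tested probe sets called in each generation, with a summed signal over 12 probe sets of 288 to 345 in F1, 229.7 to 288 in F2 and 321 to 332 in F3 on vinclozolin arrays, against 347 to 355 in F1, 293 to 335 in F2 and 315 to 338 in F3 on control arrays, and none at 0. That list holds Itgb2 itself.

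Cdh2, N-cadherin, which joins Sertoli cells to each other and to germ cells in the rodent testis, was lower at both tested probe sets. At 1387259_at its signals were 79.3 and 69.0 in F1, 84.6 and 91.8 in F2, and 89.1 and 89.3 in F3 on vinclozolin arrays, against 128 and 119 in F1, 134 and 130.1 in F2, and 133 and 139 in F3 on control arrays. Every vinclozolin array was below every control array. The fold changes were −0.63 ± 0.12 in F1 (adjusted p = 0.00155), −0.51 ± 0.12 in F2 (adjusted p = 0.0108) and −0.53 ± 0.12 in F3 (adjusted p = 0.0282), a fall in all 3, and the mean was −0.56 ± 0.07 (adjusted p = 2.75e-05). The F1 call held in each of 20 alternatives, the F2 call was lost without F2 control replicate 1 (−0.49, adjusted p = 0.0855) or 2, and the F3 call was lost in 8 of 12 fits that left out 1 array, that is without any single control array or either F3 vinclozolin array (adjusted p up to 0.227, without F3 control replicate 2).

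The second Cdh2 probe set, 1368642_at, had signals of 166 and 133 in F1, 165 and 141 in F2, and 166 and 164 in F3 on vinclozolin arrays, against 223 and 201 in F1, 211 and 200.5 in F2, and 208 and 207 in F3 on control arrays. The 6 vinclozolin arrays were again below the 6 control arrays. Its fold changes were −0.47 ± 0.12 in F1 (adjusted p = 0.0116), −0.40 ± 0.12 in F2 (adjusted p = 0.0403) and −0.30 ± 0.12 in F3 (adjusted p = 0.199), and the mean of the generations was −0.39 ± 0.07 (adjusted p = 0.000623). The F1 call was lost without F1 vinclozolin replicate 2 and without F1 control replicate 1 (−0.40, adjusted p = 0.113), and when only the 4 arrays of F1 were fitted. The F2 call was kept in 8 of 20 alternatives. It was lost without the filter, under median centring, without the variance trend and in 9 of 12 fits without 1 array, with the highest adjusted p, 0.267, without F2 vinclozolin replicate 2 (−0.29).

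Cdh3, P-cadherin, fell in F1 and F2 as well. Its signals were 159 and 123 in F1, 116 and 126 in F2, and 136 and 132 in F3 on vinclozolin arrays, against 188 and 194 in F1, 197 and 183 in F2, and 200.2 and 175 in F3 on control arrays. No vinclozolin array reached the lowest control array. The fold changes were −0.41 ± 0.13 in F1 (adjusted p = 0.0288), −0.59 ± 0.13 in F2 (adjusted p = 0.00638) and −0.43 ± 0.13 in F3 (adjusted p = 0.0766). The F1 call was lost without F1 vinclozolin replicate 2 (−0.24, adjusted p = 0.197) and without either F1 control array, under median centring and when only the 4 arrays of F1 were fitted, and the F2 call was lost without F2 control replicate 1 (−0.54, adjusted p = 0.0717). Cdh1, E-cadherin, the cadherin of epithelia, had signals of 162 and 95.0 in F1, 222 and 236 in F2, and 271 and 241 in F3 on vinclozolin arrays, against 166 and 166 in F1, 201 and 199 in F2, and 206 and 225 in F3 on control arrays. A single F1 vinclozolin array, at 95.0, stood below all the rest, and the F2 and F3 vinclozolin arrays were above their controls. The fold changes, −0.37 in F1 (adjusted p = 0.113), 0.18 in F2 (adjusted p = 0.499) and 0.23 in F3 (adjusted p = 0.487), were not called.

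Cdh11, OB-cadherin, a type II cadherin of mesenchymal cells, fell in F1 and F2 at its bright probe set 1388936_at. Its signals were 1019 and 1015 in F1, 1326 and 1102 in F2, and 1488 and 1478 in F3 on vinclozolin arrays, against 1476 and 1460.0 in F1, 1512 and 1577 in F2, and 1518 and 1488 in F3 on control arrays. The vinclozolin arrays were below the controls in F1 and F2, while in F3 the 4 arrays lay between 1478 and 1518. The fold changes were −0.52 ± 0.09 in F1 (adjusted p = 0.000613), −0.35 ± 0.09 in F2 (adjusted p = 0.0149) and −0.02 ± 0.09 in F3 (adjusted p = 0.934). The F2 call was lost without either F2 control array or F2 vinclozolin replicate 2 (−0.22, adjusted p = 0.181), under median centring and without the variance trend. The other Cdh11 probe sets gave −0.06 (F1), 0.30 (F2) and −0.26 (F3) at 1391088_at, and 0.09 (F1), −0.23 (F2) and −0.18 (F3) at 1391146_at, none called.

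Cdh23, a cadherin known from the tip links of hair cells, had signals of 52.7 and 38.4 in F1, 53.9 and 44.3 in F2, and 48.4 and 48.5 in F3 on vinclozolin arrays, against 64.7 and 72.9 in F1, 71.8 and 56.4 in F2, and 57.4 and 63.6 in F3 on control arrays. The vinclozolin arrays were all below the control arrays. It fell in F1 (−0.47 ± 0.16, adjusted p = 0.0492) and was not called in F2 (−0.30, adjusted p = 0.249) or F3 (−0.25, adjusted p = 0.46). The F1 call was the least stable, kept in 5 of 20 alternatives and lost in 9 of 12 fits that left out 1 array (highest adjusted p 0.291, without F1 vinclozolin replicate 2). It was also lost with a pseudocount of 1, without the filter, under quantile normalization, under median centring, with the replicate block and when only the 4 arrays of F1 were fitted. Cdh22, a type II cadherin, had 690.2 and 986 in F1 vinclozolin against 727 and 741 in F1 control testes, 639 and 612 against 726 and 790.5 in F2, and 808 and 867 against 685 and 748 in F3, with no call. Cdh7, Cdh13 (T-cadherin, 3 probe sets), Cdh15 (M-cadherin of muscle) and Cdh17 were not called either. By class, classical cadherins had 3 of 5 tested probe sets (60%) lower in F1 and in F2 and 1 (20%) in F3, against 23.1%, 14.3% and 3.11% of all called, with none higher and medians of −0.41, −0.40 and −0.30; of the 5, 2 are of Cdh2. Type II cadherins had 1 of 5 (20%) lower in F1 and in F2 and 0 in F3, with medians of −0.06, −0.23 and −0.05 in F1, F2 and F3. The other cadherins had 1 of 5 (20%) lower in F1 and 0 in F2 and F3, with medians of 0.02, −0.25 and −0.25.

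**Figure D3:**
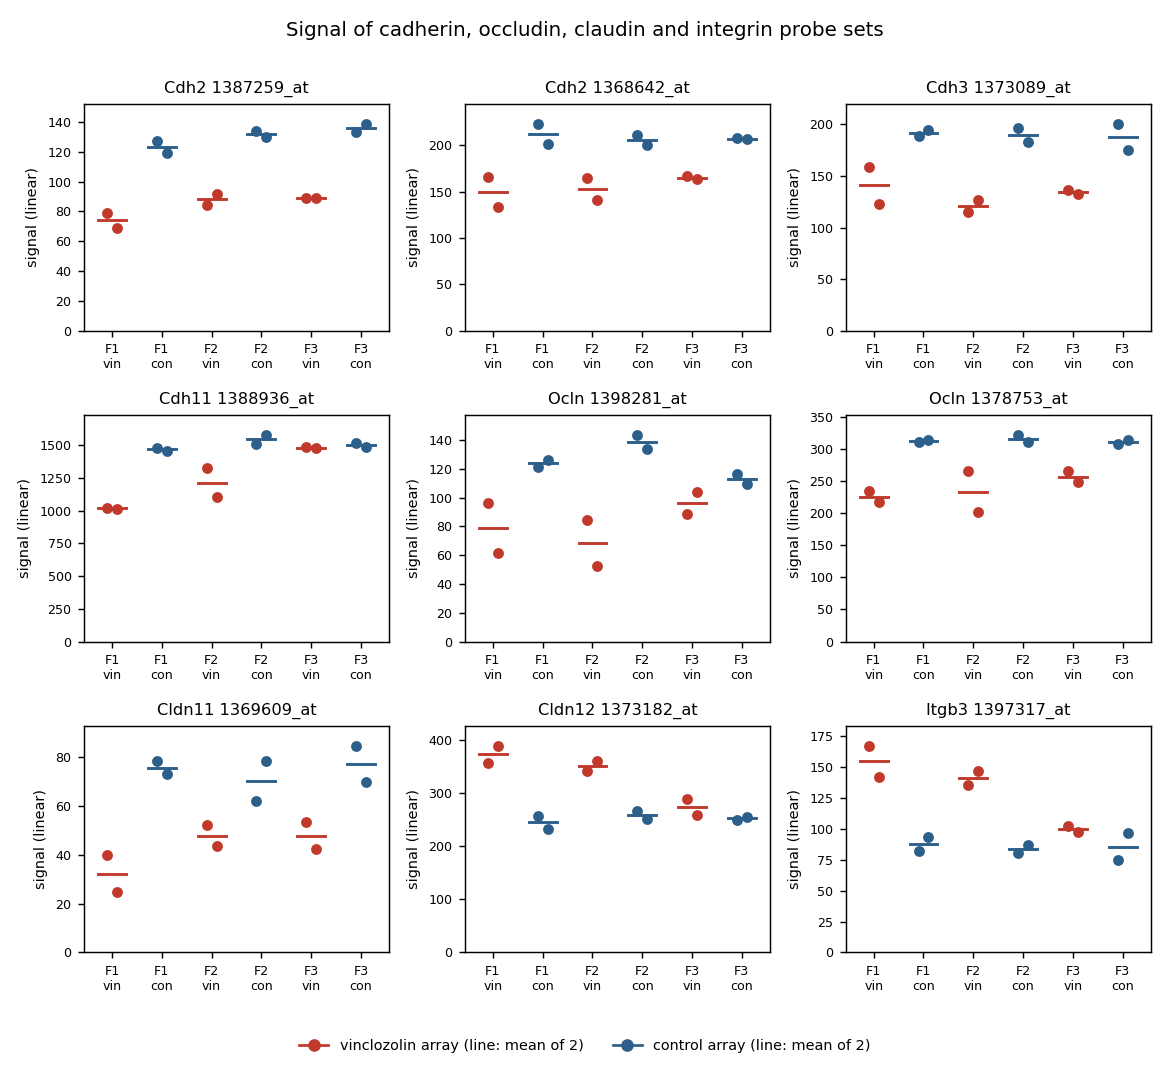
Signal (linear) of the Cdh2, Cdh3, Cdh11, Ocln, Cldn11, Cldn12 and Itgb3 probe sets called in F1, on each array, by generation and lineage, with points for arrays and lines for the mean of 2. Cdh23, also called in F1, is not drawn. For Cdh2 all 6 vinclozolin arrays lie below all 6 control arrays, and for Itgb3 all 6 lie above.

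Occludin, the multi-pass membrane protein of tight junction strands, was lower at both of its probe sets. Ocln (1378753_at) had signals of 234 and 217 in F1, 266 and 201 in F2, and 266 and 248 in F3 on vinclozolin arrays, against 311 and 314 in F1, 322 and 311 in F2, and 308 and 314 in F3 on control arrays. No vinclozolin array reached the lowest control. Its fold changes were −0.44 ± 0.12 in F1 (adjusted p = 0.0128), −0.42 ± 0.12 in F2 (adjusted p = 0.0254) and −0.26 ± 0.12 in F3 (adjusted p = 0.247). Ocln (1398281_at) had 96.1 and 61.8 in F1, 84.6 and 52.8 in F2, and 88.8 and 104 in F3 on vinclozolin arrays, against 122 and 126 in F1, 143 and 134 in F2, and 116 and 109 in F3 on control arrays. Here too the lineages did not overlap, and 1 array of each of the F1 and F2 vinclozolin groups was markedly lower than its replicate. Its fold changes were −0.58 ± 0.18 in F1 (adjusted p = 0.0329), −0.89 ± 0.18 in F2 (adjusted p = 0.00505) and −0.20 ± 0.18 in F3 (adjusted p = 0.618).

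Each of the 4 Ocln calls in F1 and F2 was lost on leaving out some single arrays. In F1, 1378753_at was lost without either F1 control array (−0.44, adjusted p = 0.0812, without replicate 2) and 1398281_at without either F1 control array or F1 vinclozolin replicate 2 (−0.32, adjusted p = 0.28). In F2, 1378753_at was lost without either F2 control array or F2 vinclozolin replicate 2 (−0.23, adjusted p = 0.268), and 1398281_at without F2 control replicate 1 or F2 vinclozolin replicate 2 (−0.62, adjusted p = 0.0862). The F1 call of 1398281_at was kept in 12 of 20 alternatives, and was also lost without the filter, under quantile normalization, under median centring, without the variance trend and when only the 4 arrays of F1 were fitted. The F1 call of 1378753_at was also lost in the fit of 4 arrays, and its F2 call under median centring and without the variance trend.

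Of the scaffold proteins that link claudins and occludin to actin, Tjp1 (ZO-1) fell in F2 and Tjp3 (ZO-3) in F3, each at a dim probe set. Tjp1 at its dim probe set 1395337_at had signals of 28.7 and 9.3 in F1, 10.0 and 12.8 in F2, and 8.3 and 5.2 in F3 on vinclozolin arrays, against 25.4 and 30.8 in F1, 41.0 and 44.0 in F2, and 32.1 and 20.2 in F3 on control arrays. The vinclozolin arrays were below the controls in F2 and F3, and overlapped them in F1. Its fold changes were −0.39 ± 0.25 in F1 (adjusted p = 0.285), −1.10 ± 0.25 in F2 (adjusted p = 0.00864) and −0.88 ± 0.25 in F3 (adjusted p = 0.0684), and their dependence on generation was not called (adjusted p = 0.46). The F2 call was lost without F2 control replicate 1 or 2 (−1.06, adjusted p = 0.0677, without replicate 2). The bright Tjp1 probe set, 1372473_at, was not called, with −0.32 in F1 (adjusted p = 0.0834), 0.07 in F2 (adjusted p = 0.753) and 0.06 in F3 (adjusted p = 0.845).

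Tjp3 (1378567_at) had signals of 40.7 and 26.4 in F1, 33.1 and 34.8 in F2, and 5.4 and 5.0 in F3 on vinclozolin arrays, against 27.9 and 37.6 in F1, 44.2 and 36.7 in F2, and 33.0 and 45.8 in F3 on control arrays. Both F3 vinclozolin arrays stood far below the other 10 arrays. The fold change was 0.02 ± 0.20 in F1 (adjusted p = 0.966), −0.17 ± 0.20 in F2 (adjusted p = 0.609) and −1.38 ± 0.20 in F3 (adjusted p = 0.00197), with a generation dependence at an adjusted p of 0.022. Tjp3 fell in F3, and the call was lost in 1 of 20 alternatives, without F3 control replicate 2 (−1.21, adjusted p = 0.059). The dependence on generation was lost in 6 of 12 fits that left out 1 array, those without any single F1 control, F3 control or F3 vinclozolin array (adjusted p up to 0.203, without F3 control replicate 2). The F3 vinclozolin signals, 5.4 and 5.0, are below 14.8, the level under which probe sets were left out, so the fold is damped by the added 16.

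**Figure D4:**
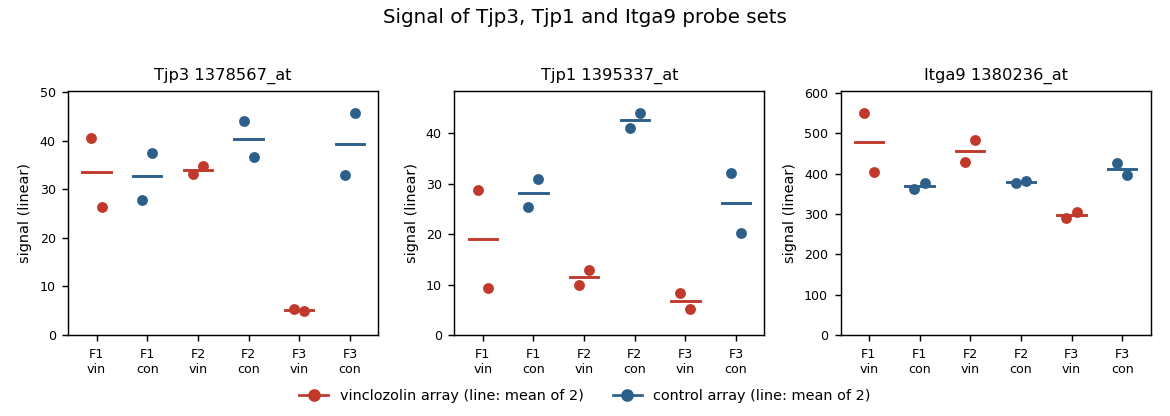
Signal (linear) of Tjp3, Tjp1 1395337_at and Itga9 1380236_at on each array, by generation and lineage, with points for arrays and lines for the mean of 2. Tjp3 is low only on both F3 vinclozolin arrays (5.4 and 5.0), and Itga9 is above its controls in F1 and F2 and below them in F3.

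Cldn11, the claudin of Sertoli cell tight junctions, went in opposite directions at its probe sets. At 1369609_at its signals were 39.8 and 24.6 in F1, 52.1 and 43.6 in F2, and 53.5 and 42.2 in F3 on vinclozolin arrays, against 78.4 and 73.0 in F1, 61.9 and 78.4 in F2, and 84.5 and 69.9 in F3 on control arrays. The 6 vinclozolin arrays were below the 6 control arrays. It fell in F1, with fold changes of −0.95 ± 0.18 in F1 (adjusted p = 0.00163), −0.43 ± 0.18 in F2 (adjusted p = 0.129) and −0.55 ± 0.18 in F3 (adjusted p = 0.113), and the F1 call held in each of 20 alternatives. The bright probe set 1376711_at had 1082 and 987 in F1, 906 and 1006 in F2, and 1103 and 975 in F3 on vinclozolin arrays, against 886 and 907 in F1, 864 and 879 in F2, and 900.3 and 914 in F3 on control arrays. Vinclozolin arrays were higher than their own controls in every generation. No generation was called (0.20 (F1), 0.13 (F2) and 0.19 (F3)), but the mean was, at 0.17 ± 0.05 (adjusted p = 0.0166). The mean call was lost under quantile normalization (0.09, adjusted p = 0.192), without the variance trend and without F1 control replicate 1, F3 control replicate 1, F2 vinclozolin replicate 2 or F3 vinclozolin replicate 1 (0.14, adjusted p = 0.0597). Cldn11 was the only one of 30 tested genes with a higher and a lower call in the mean.

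Cldn12, a claudin without the usual PDZ-binding end, rose in F1 and F2. Its signals were 358 and 389 in F1, 342 and 360.5 in F2, and 289.8 and 259 in F3 on vinclozolin arrays, against 258 and 233 in F1, 267 and 251 in F2, and 251 and 256 in F3 on control arrays. The vinclozolin arrays were above their controls in every generation, by least in F3. The fold changes were 0.57 ± 0.10 in F1 (adjusted p = 0.000949), 0.42 ± 0.10 in F2 (adjusted p = 0.0132) and 0.11 ± 0.10 in F3 (adjusted p = 0.632). The F1 call held in each of 20 alternatives, and the F2 call was lost without either F2 control array or F2 vinclozolin replicate 2 (0.37, adjusted p = 0.111, without F2 control replicate 2). Of 10 tested probe sets of endothelial markers, 1 was higher in F1 and in F2 and 0 in F3, and both times it was Cldn5 (0.48, adjusted p = 0.00552, in F1). Their summed signal over 11 probe sets was 1356 to 1582 in F1, 1418 to 1461 in F2 and 1342 to 1408 in F3 on vinclozolin arrays, against 1325 to 1441 in F1, 1316 to 1403 in F2 and 1336 to 1371 in F3 on control arrays, with none at 0. In all, claudins had 1 higher and 1 lower call among 4 tested probe sets (50%) in F1, 1 higher (25%) in F2 and 0 in F3, against 23.1%, 14.3% and 3.11% of all called, with medians of 0.13, 0.06 and 0.08. The fourth tested claudin probe set, of Cldn1, was not called in any generation. Tjp scaffolds with occludin had 2 of 5 (40%) lower in F1, 3 (60%) in F2 and 1 (20%) in F3, with medians of −0.39, −0.42 and −0.26. Both F1 calls were of Ocln, and those in F2 were both Ocln probe sets and 1 of Tjp1.

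Of the 5 tight junction genes with a call and a promoter in RefSeq (build GRCr8), 4 are shown, the 3 with an E-box and Cldn12, which has none. Tjp1, which was lower at 1 probe set and also has none, is not shown. The windows run from 250 bases before to 50 bases after 1 start site per gene. For Cldn12, Tjp3 and Ocln that site lies inside the bounds of the gene, which are chr4:29477468-29488465, chr7:9078757-9097003 and chr2:33391303-33442207. Any start site further out was not searched. They were searched on both strands for the E-box CAGGTG, bound by Snai and Zeb repressors of junction genes, and matches are in capitals, as CAGGTG or CACCTG. The Ocln window, chr2:33441149-33441448 (minus strand), held the E-box at bases 114 to 119 and 183 to 188.
Ocln: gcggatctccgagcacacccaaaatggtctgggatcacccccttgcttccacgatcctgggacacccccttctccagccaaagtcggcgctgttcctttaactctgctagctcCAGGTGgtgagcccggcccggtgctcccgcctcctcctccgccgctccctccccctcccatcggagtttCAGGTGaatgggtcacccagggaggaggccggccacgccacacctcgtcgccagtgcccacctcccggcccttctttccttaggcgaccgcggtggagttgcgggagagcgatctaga
Cldn11: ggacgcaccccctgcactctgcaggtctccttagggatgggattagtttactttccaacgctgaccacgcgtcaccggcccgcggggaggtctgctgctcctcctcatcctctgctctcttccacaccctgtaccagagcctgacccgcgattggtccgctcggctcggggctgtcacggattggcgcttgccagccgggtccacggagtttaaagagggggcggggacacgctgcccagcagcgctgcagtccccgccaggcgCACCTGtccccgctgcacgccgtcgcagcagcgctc
Tjp3: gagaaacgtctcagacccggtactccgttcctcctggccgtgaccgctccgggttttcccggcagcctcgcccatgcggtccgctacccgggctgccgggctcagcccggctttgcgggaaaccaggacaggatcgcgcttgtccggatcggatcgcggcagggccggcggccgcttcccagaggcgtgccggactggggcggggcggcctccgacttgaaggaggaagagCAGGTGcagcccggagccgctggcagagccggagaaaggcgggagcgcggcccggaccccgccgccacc
Cldn12: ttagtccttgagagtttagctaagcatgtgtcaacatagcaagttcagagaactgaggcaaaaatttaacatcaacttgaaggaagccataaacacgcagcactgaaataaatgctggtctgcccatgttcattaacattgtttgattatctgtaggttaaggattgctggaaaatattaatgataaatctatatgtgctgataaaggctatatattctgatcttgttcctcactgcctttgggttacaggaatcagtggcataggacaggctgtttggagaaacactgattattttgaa
The Cldn11 window, chr2:114149490-114149789 (minus strand), held it at bases 265 to 270, after the start site. The Tjp3 window, chr7:9084174-9084473 (plus strand), held it at bases 232 to 237, and the Cldn12 window, chr4:29482060-29482359 (plus strand), held none, nor did that of Tjp1. A promoter was found for 36 of the 50 member genes, and 10 of them (27.8%) held the E-box, against 18.8% of all 33469 windows. Of these 36 genes, 20 had a tested probe set, and 5 of the 20 held the E-box. Among members called lower outside the tight junction genes, the windows of Cdh23, Itgb1, Itga5 and Itgav held none, and that of Itga3 held 1. A match describes the letters only, and a link between the E-box and the direction of the calls was not tested. The GC box GGGCGG was found in 19 of 36 member promoters, against 33.1% of all windows, and TATAAA in 1 of 36, against 14.2%.

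Probe sets of 1 gene did not always share a call. The 11 genes with several tested probe sets made 24 pairs. In F1 both probe sets of a pair were called in 3 pairs (Cdh2, Itga6 and Ocln), always in the same direction. A single one was called in 8, all of Itga6, Cdh11, Cldn11 or Itgb1, and neither in 13. The counts were 3, 8 and 13 in F2, and 0, 1 and 23 in F3. The beta-actin ratio was lowest on the F1 and F2 vinclozolin arrays, and its part in the calls was not tested. Signals of Itga6 and Cdh2, at 1 probe set each, are plotted against that ratio.

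**Figure D5:**
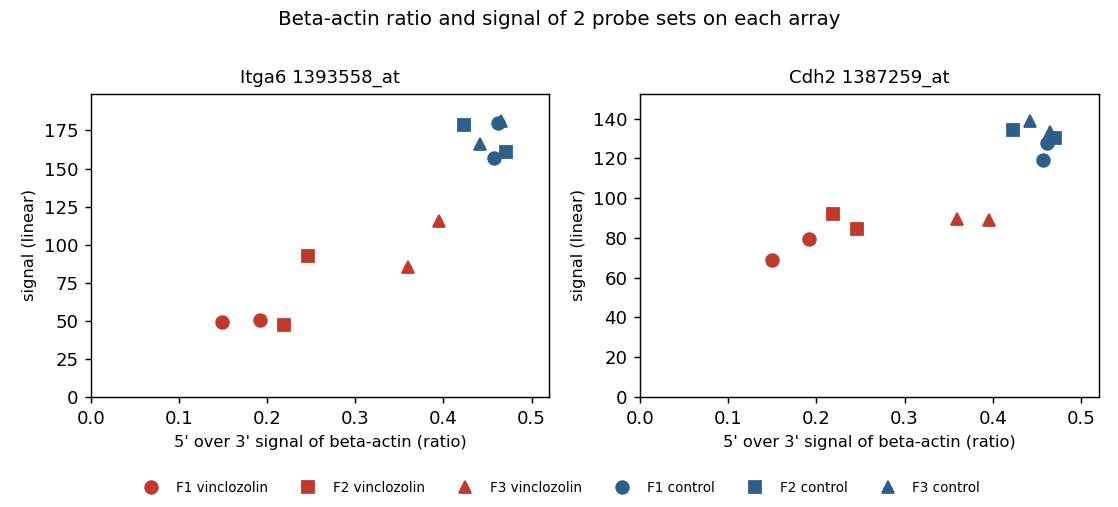
Signal (linear) of Itga6 1393558_at and Cdh2 1387259_at against the beta-actin 5′ to 3′ ratio of the same array, with colours for lineage and marks for generation. The F1 vinclozolin arrays lie at ratios of 0.149 and 0.192, the F2 vinclozolin arrays at 0.219 and 0.246, the F3 vinclozolin arrays at 0.360 and 0.395, and the control arrays from 0.423 to 0.471.

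The intracellular partners of these receptors were taken from lists of textbook members, and their counts are set against the 23.1%, 14.3% and 3.11% of all tested probe sets called in F1, F2 and F3. Of 25 tested probe sets of catenins and other adherens partners, 1 was higher and 8 lower in F1 (36%), 2 and 5 in F2 (28%), and 2 and 2 in F3 (16%), with a median of 0.02 in F1. Afdn, the nectin-binding afadin, gave −1.09 and −1.05 in F1 at 1387392_at and 1388036_a_at, both called, and 0.03 at 1373027_at, not called. In F2, 1388036_a_at was lower again (−0.66), while 1373027_at was higher (0.36, limma adjusted p = 0.0337). Vcl, vinculin, fell in F1 at 1375538_at (−0.93) and 1398476_at (−0.90), while 1372905_at gave 0.14 in F1, not called, and was higher in the mean (0.19, adjusted p = 0.0239). Ctnnb1, beta-catenin, in F1 fell at 1369733_at (−0.90), rose at 1373470_at (0.70) and gave 0.08 at 1373067_at, not called. Its probe set 1373067_at was higher in F3 (0.38, limma adjusted p = 0.0104) and in the mean (0.19, adjusted p = 0.00202). Calls also continued at 1373470_at, higher in F2 (0.35) and F3 (0.41), and at 1369733_at, lower in F2 (−0.75).

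Focal adhesion partners had 1 higher and 6 lower of 32 in F1 (21.9%), 1 and 5 in F2 (18.8%), and 0 and 3 in F3 (9.38%), with a median of −0.11 in F1; the F1 share is near that of the array. In F1, Lims1 (PINCH) fell by 1.16 at 1385430_at and rose by 0.24 at 1373072_at (adjusted p = 0.0499). Src, a tyrosine kinase, fell by 1.05 at 1368830_at, and its other tested probe sets gave −0.12 (1373124_at) and 0.23 (1389030_a_at), neither called in F1. In F3, 1389030_a_at was lower (−0.51, limma adjusted p = 0.0498). Parva, parvin, fell by 0.74 at 1370266_at and gave 0.00 at 1371588_at, not called. Tight junction and polarity partners had 1 higher and 7 lower of 35 in F1 (22.9%), 0 and 7 in F2 (20%), and 0 and 1 in F3 (2.86%), near the array's share in F1 and F3, with a median of −0.17 in F1. Prkci, an atypical protein kinase C, fell by 1.20 at 1388251_at and by 0.40 at 1373047_at, with −0.55 at 1371203_at, not called. Jam2, a junctional adhesion molecule, fell by 0.86 at 1392309_at, while its other 4 tested probe sets gave −0.51 to 0.08 in F1, none called. Pals1, a polarity scaffold, rose by 0.74 at 1397535_at, while 1382363_at gave −0.29 in F1, not called, and was lower in F2 (−0.51) and in the mean (−0.38, adjusted p = 0.00396).

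Desmosome and gap junction genes had 1 higher and 2 lower of 10 in F1 (30%), 1 and 1 in F2 (20%), and 1 and 0 in F3 (10%). In F1, Gja1, connexin 43, fell by 1.04 at 1369640_at and rose by 0.61 at 1372002_at. Of 9 probe sets of cadherin repressors, 1 was higher and 1 lower in F1 (22.2%), both of Zeb2, at 0.57 (1395130_at) and −1.04 (1390940_at). The counts were 0 and 1 in F2 (11.1%) and none in F3. The other 3 Zeb2 probe sets gave −0.03 to 0.43 in F1, none called. In the mean of the generations, 1 repressor probe set was higher and 5 were lower (66.7%), against 33.3% of all tested probe sets. The integrins of leukocytes and platelets outside the member rule had 0 of 3 called in each generation, while in the mean Itgae (1370526_at), an alpha chain of lymphocytes, was called higher (0.31, adjusted p = 0.0363).

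Markers of the cells that could carry these genes were read beside them. Sertoli cell markers had 1 higher and 4 lower of 11 tested probe sets in F1 (45.5%), 0 and 3 in F2 (27.3%), and 0 and 1 in F3 (9.09%), against 23.1%, 14.3% and 3.11% of all, with Nr5a1 (1369859_at) at −1.59, Wt1 (1369695_at) at −1.20, Gata4 (1370293_at) at −1.05 and Ptgds at 1.15 in F1. The other tested probe set of Nr5a1 gave −0.05, that of Wt1 −0.11 and that of Gata4 −0.08 in F1, none called in any generation. Their summed signal over 12 probe sets was 5356 to 6583 in F1, 6993 to 7017 in F2 and 5767 to 6072 in F3 on vinclozolin arrays, against 6605 to 6887 in F1, 6625 to 6911 in F2 and 6658 to 6848 in F3 on control arrays, with none at 0. Leydig cell markers had 2 higher and 3 lower of 9 in F1 (55.6%), 3 and 2 in F2 (55.6%), and 3 and 0 in F3 (33.3%). The summed signal of the Leydig list was 12854 to 15296 in F1, 14203 to 15095 in F2 and 13873 to 14992 in F3 on vinclozolin arrays, against 12502 to 12682 in F1, 12249.5 to 12728.5 in F2 and 12044 to 12366 in F3 on control arrays. Of 9 germ cell marker genes listed, 2 were on the array, each with 1 tested probe set. Kit was lower in F1 (−1.86) and F2 (−1.02) and not called in F3 (−0.34), and Nanos3 was not called. The median of the 2 was −0.86 in F1, −0.45 in F2 and 0.02 in F3, so the fold changes of Nanos3 had the opposite sign to those of Kit. The summed signal of these 2 probe sets was 45.4 to 59.7 in F1, 70.9 to 81.6 in F2 and 89.7 to 105 in F3 on vinclozolin arrays, against 112 to 117 in F1, 117 to 119.8 in F2 and 93.6 to 101 in F3 on control arrays. Its fall in F1 and F2 was thus that of Kit alone. None of the Sertoli, Leydig or germ cell markers is itself a member. Mesonephric epithelium had 0 higher and 1 lower of 6 tested probe sets in F1 and none in F2 or F3. Skeletal muscle had 0 higher and 1 lower of 4 in F1 and in F2 and none in F3. The muscle list holds the member Cdh15, which was not called, and the mesonephric list the member Cdh16, which was not tested. Schwann cells had 1 higher and 1 lower of 4 in F1, 0 and 1 in F2, and none in F3. The part of these markers in the results of the members was not tested.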

How the data were processed

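The authors deposited 1 table of signal intensity per probe set for 12 arrays. Per the labels' protocols, RNA of pooled testes was extracted with Trizol and labelled with biotin by standard Affymetrix procedures. The software of summarisation was not given in the sources used here. The deposited intensity values had a 2% trimmed mean of 125.03 to 125.04 on every array, so they carried a global scaling. Of 31099 probe sets, 57 were Affymetrix controls and were not tested. Symbols came from the array annotation: 20837 probe sets had 1 symbol, 425 several and 9780 none.

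Values were transformed as log2(value + 16). The lowest 30% by mean were left out. Using limma 3.58.1 (R 4.3.3), 1 mean per group was estimated from the 12 arrays together (lmFit, eBayes with trend, 6 residual and 8.97 prior degrees of freedom), with Benjamini-Hochberg adjustment over 21729 probe sets and a threshold of 0.05. Tests covered vinclozolin minus control per generation, the average of these differences, and, by F tests, their dependence on generation and the spread among controls. An exact permutation test of 2 arrays against 2 cannot go below p = 0.333. The number of arrays limits the precision. The code was tested on simulated data.

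Any member could be named. Full statistics were for up to 12 called members per generation and for the mean, by size, and up to 5 per F test by p, with the other tested probe sets of the gene beside them; partner lists gave up to 4 called members by size of F1 change. The members and lists were chosen with earlier results of these data known. Alternatives were the pseudocount, the filter, quantile normalization, median centring, no trend, a replicate block, the arrays of 1 generation alone and leaving out each array. Replicate numbers did not pair arrays: 15 correlations of replicate differences between groups lay between -0.0932 and 0.0678.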

Additional observations from a re-analysis of the deposited data

Results flagged for a closer look

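The differences between lineages depended on generation for 3 members, by limma's F test over all 12 arrays, where 2.6% of all tested probe sets were called. Tjp3 (1378567_at) had an adjusted p of 0.022, with fold changes of 0.02 in F1, −0.17 in F2 and −1.38 in F3. Itga9 (1380236_at) had an adjusted p of 0.0351, with 0.34 in F1, 0.25 in F2 and −0.45 in F3. Itga6 (1371186_at) had an adjusted p of 0.0481, with −1.10 in F1, −0.86 in F2 and −0.10 in F3. Without the filter on dim probe sets, 0 of the 3 was called. Each call was also lost when some single arrays were left out, in 6 of 12 such fits for Tjp3, 9 for Itga9 and 10 for Itga6.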

How the results depend on the processing

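The F1 count of 13 called members lay between 11 and 14 under the alternatives to normalization, pseudocount, filter and variance trend, and was 8 when only the 4 arrays of F1 were fitted. The F2 count of 12 lay between 10 and 13. The F3 count of 2 was 2 or 3, and 8 when only the 4 arrays of F3 were fitted. The count of 20 in the mean lay between 15 and 20. The 3 members with a dependence on generation became 1 with a pseudocount of 64, 0 without a filter and 1 without the variance trend. Leaving out 1 array gave 8 to 20 members in F1, 2 to 15 in F2, 0 to 7 in F3, 15 to 24 in the mean and 0 to 9 with a dependence on generation. The cause of these shifts was not tested, beyond the smaller number of arrays fitted. With the replicate number as a block, the counts were 12 in F1, 12 in F2, 3 in F3, 20 in the mean and 2 with a dependence on generation. Counted over F1, F2, F3 and the mean together, there were 47 calls, of which 24 held under every alternative run for them and 0 reversed. Most of those that held were calls of the mean or of F1. In F2 only the calls of Itga6 held throughout, and in F3 neither call did. Precision is limited by 2 arrays per group and, for dim members, by signals near the filter.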

Other observations

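Without the filter on dim probe sets, 2 claudins that had been left out were called higher in F2. Cldn3 had signals of 21.4 and 56.7 on F2 vinclozolin arrays, against 6.9 and 5.9 on F2 control arrays (1.22, limma adjusted p = 0.0425). Cldn18 (1383562_at) had 7.7 and 20.2 on F2 vinclozolin arrays, against 1.9 and 2.4 on F2 control arrays (0.69, adjusted p = 0.0483). In both, F2 vinclozolin replicate 2 was much the higher of its group. The other Cldn18 probe sets, 1382833_at and 1397773_at, overlapped between the F2 groups and were not called.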
